A study of Mus musculus with 6 samples.

Results

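The cytokines that signal through gp130, the shared receptor chain encoded by Il6st, were examined in infarcted mouse hearts with and without Zeb2 in cardiomyocytes, 14 days after myocardial infarction (MI). The group holds 10 genes of the 38293 in the count table, listed by symbol and chosen with earlier results of these data known. It comprises 4 ligands (Il6, Lif, Osm and Il11), 4 receptor chains (Il6st, Il6ra, Osmr and Lifr), the transcription factor Stat3 and the feedback inhibitor Socs3. Each symbol matched 1 row, each had a count in at least 1 library, and 8 of the 10 passed the filter on low counts. Osm and Il11 did not pass and were not tested. Of the 8 tested genes, 0 differed between the genotypes after adjustment in edgeR (0% of all 14746 tested genes, beside 280 at an unadjusted p under 0.05). In 6 of the 10 genes, 1 Zeb2 fl/fl heart, replicate 2, was the highest of the 6 libraries.

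The study asked what the loss of ZEB2, a zinc finger transcription factor, from cardiomyocytes does to the infarcted heart. All 6 mice were adults on a backcrossed C57BL/6J strain, carried floxed Zeb2 alleles according to the methods, and had their left anterior descending coronary artery permanently occluded. For the 3 Zeb2 fl/fl mice, which the sample labels call WT, the methods name no Cre recombinase. The 3 Zeb2 cKO mice also carried Cre under the Myh6 (αMHC) promoter, so the deletion is limited to cardiomyocytes, whereas RNA was taken from whole tissue. The labels name the border region of the infarct as the tissue and the methods name the remote zone. Hearts without an infarct were not analysed here, so a level in these libraries is not a response to MI.

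Cytokines of this family bind a receptor chain of their own, such as the IL-6 receptor, the LIF receptor or the OSM receptor, and bring it together with gp130. JAK kinases on the chains then phosphorylate STAT3, which enters the nucleus and switches on genes, among them Socs3, whose product shuts the receptor down. In the heart the pathway is known for protecting cardiomyocytes, for hypertrophy and, under lasting oncostatin M, for dedifferentiation of cardiomyocytes, and fibroblasts and macrophages are known sources and targets of these cytokines.

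The promoters were read for a palindrome bound by STAT factors, TTCNNNGAA, and for CACCT, the box that ZEB proteins bind, on both strands (AGGTG on the other). RefSeq promoters of build GRCm38.p6, each with 250 bases before and 50 after a gene start, were at hand for 9 of the 10 genes in 11 windows, and none for Osm. The STAT palindrome occurred in 1 of the 9 genes, Socs3, at -154 from its RefSeq start, and 8.30% of all 32851 mouse promoters hold it. The CACCT box occurred 9 times in 5 of the genes (Il6ra, Il11, Lif, Stat3 and Lifr), and 51.9% of all promoters hold at least 1. The second window of Lifr held 3 boxes, and 5.04% of all promoters hold 3 or more. The 250 bases before the RefSeq start are shown for Socs3, Lifr, Il6ra and Il6. Socs3 was taken as the target with the STAT palindrome and Lifr as the gene with the most boxes. Il6ra was taken as the receptor chain whose groups did not overlap, and Il6 as the ligand with the largest difference. Capitals mark the palindrome in Socs3 and the boxes in Lifr and Il6ra. The Socs3 and Lifr windows lie within the gene spans given below, so their RefSeq starts are internal to those spans. The Il6ra and Il6 windows lie directly before their gene spans. The windows lie at chr11:117969367-117969616 (minus strand) for Socs3, chr15:7140292-7140541 (plus strand) for Lifr, chr3:89913197-89913446 (minus strand) for Il6ra and chr5:30012864-30013113 (plus strand) for Il6.
Socs3: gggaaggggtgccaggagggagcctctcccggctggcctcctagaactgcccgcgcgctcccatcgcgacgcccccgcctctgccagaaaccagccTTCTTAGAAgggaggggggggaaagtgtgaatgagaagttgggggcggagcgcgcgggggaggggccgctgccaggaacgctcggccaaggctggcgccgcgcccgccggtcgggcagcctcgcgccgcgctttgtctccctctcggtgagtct
Lifr: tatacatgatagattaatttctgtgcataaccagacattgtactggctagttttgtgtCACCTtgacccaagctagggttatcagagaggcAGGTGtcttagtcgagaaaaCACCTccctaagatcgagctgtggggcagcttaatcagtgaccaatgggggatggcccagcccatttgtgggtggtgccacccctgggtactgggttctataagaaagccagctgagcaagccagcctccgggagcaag
Il6ra: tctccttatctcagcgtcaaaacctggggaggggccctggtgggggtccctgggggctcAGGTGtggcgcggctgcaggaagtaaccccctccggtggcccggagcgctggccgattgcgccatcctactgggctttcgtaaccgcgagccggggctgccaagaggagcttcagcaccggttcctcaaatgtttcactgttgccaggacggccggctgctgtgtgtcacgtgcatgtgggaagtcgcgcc
Il6: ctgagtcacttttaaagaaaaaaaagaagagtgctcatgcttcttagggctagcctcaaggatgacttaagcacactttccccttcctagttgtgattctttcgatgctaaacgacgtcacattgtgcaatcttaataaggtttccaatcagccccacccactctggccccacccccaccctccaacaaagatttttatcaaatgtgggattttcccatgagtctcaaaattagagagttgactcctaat
The palindrome of Socs3 and the boxes share no bases. The Il6 window holds neither sequence, which says only that these letters are not in it, and no binding was measured in these hearts.

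Library totals were between 37288174 and 51136331 counts, of which 60.5% to 67.0% came from mitochondrially encoded genes. Levels are given as CPM, counts scaled to a common library size after TMM normalization in edgeR, and library values are listed in the order of replicates 1, 2 and 3. Zeb2 itself lay between 61.3 and 116.05 CPM in Zeb2 fl/fl and between 59.6 and 72.6 CPM in Zeb2 cKO hearts, so the groups overlapped and the tissue as a whole gives no clear check of the deletion. Zeb2 fl/fl replicate 2 stood apart. Fibroblast markers there summed to 9794 CPM, 4.12 times the highest of the other 5 libraries, macrophage markers to 906 CPM, 2.75 times the highest, and cardiomyocyte markers to 12976 CPM, the lowest of the 6. Fold changes and medians are therefore also given without that library. In 35.2% of all tested genes this library was the highest of the 6.

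The receptor and signalling genes ranked above the ligands, which were scarce, but Il6ra was also low and its range met that of Il6. Per kilobase of exon, the median level over the 6 libraries was 13.7 CPM for Il6st, 8.52 for Stat3, 4.50 for Lifr, 1.94 for Osmr, 0.940 for Socs3 and 0.283 for Il6ra. The ligands followed at 0.153 CPM per kilobase for Il6, 0.0899 for Lif, 0.0430 for Osm and 0.0172 for Il11. This order held in each of the 6 libraries, except that Il6 against Lif and Osm against Il11 held in 5. Neighbours in the order had ranges that did not overlap for Il6st and Stat3, Stat3 and Lifr, Lifr and Osmr, and Socs3 and Il6ra, whereas the ranges of Osmr and Socs3, of Il6ra and Il6 and of the 4 ligands among themselves met. Il11ra1, the receptor chain of IL-11, was at a median of 2.88 CPM per kilobase, but 98.96% of its longest transcript is near-identical to Il11ra2 and Gm13305, so its level is uncertain.

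**Figure D1:**
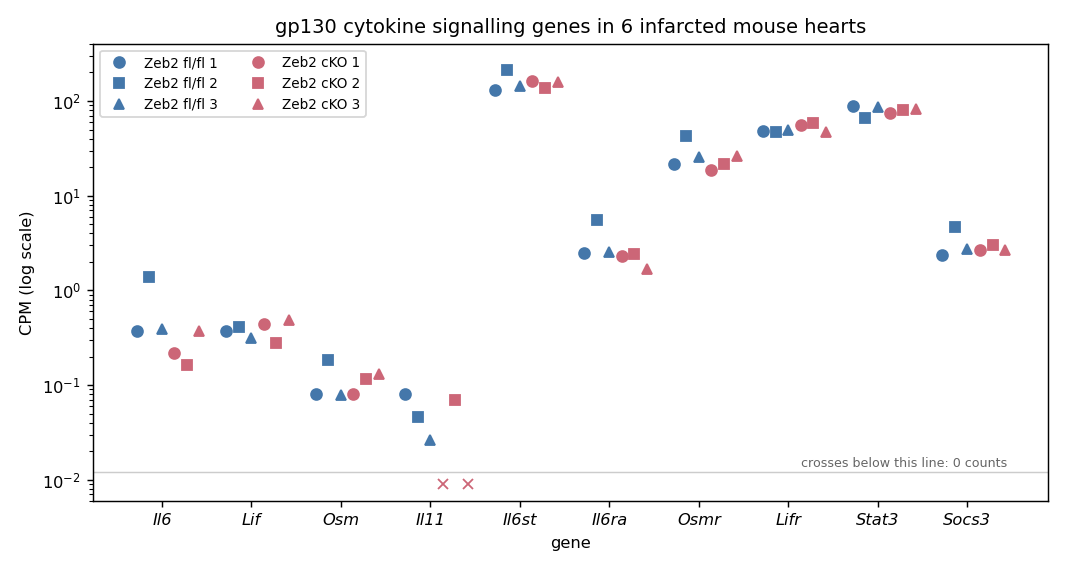
CPM (log scale, not corrected for gene length) of the 10 genes in each of the 6 libraries, with the genotypes in blue and red, replicate numbers 1, 2 and 3 as circles, squares and triangles, and libraries with 0 counts as crosses below the line. The blue square, Zeb2 fl/fl replicate 2, lies above the other 5 libraries for Il6, Osm, Il6st, Il6ra, Osmr and Socs3 and below them for Lifr and Stat3, and the ligands lie under 2 CPM in every library.

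Il6, the founding cytokine of the family (ENSMUSG00000025746, chromosome 5 of GRCm38, 30013114 to 30019981, plus strand), had counts of 14, 61 and 15 in Zeb2 fl/fl and of 11, 7 and 20 in Zeb2 cKO hearts. These counts correspond to 0.372, 1.39 and 0.391 CPM in Zeb2 fl/fl and to 0.220, 0.161 and 0.372 CPM in Zeb2 cKO hearts. The groups overlapped, and Zeb2 fl/fl replicate 2 was 4.59 times the mean of the other 5 libraries. The log2 fold change of Zeb2 cKO against Zeb2 fl/fl hearts was -1.50 (standard error 0.63, 95% interval -3.00 to -0.0055), and edgeR's adjusted p (Benjamini-Hochberg, over all tested genes) was 0.957. Its unadjusted edgeR p of 0.0477 made it the 1 gene of the group under 0.05 and lower in Zeb2 cKO hearts, where 0.861% of all tested genes were so called, and an exact permutation test gave p = 0.2 (two-sided, smallest possible 0.1). Without replicate 2 the log2 fold change was -0.57, with an interval of -1.60 to 0.45. The unadjusted edgeR p was also above 0.05 without Zeb2 cKO replicate 1 (0.121, log2 fold change -1.41) or Zeb2 cKO replicate 2 (0.132, log2 fold change -1.28). In whole tissue, fewer cells of a type that makes Il6 and less Il6 RNA per cell cannot be told apart.

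Lif, the leukaemia inhibitory factor, had between 12 and 26 counts in a library, which is 0.372, 0.410 and 0.312 CPM in Zeb2 fl/fl and 0.440, 0.277 and 0.484 CPM in Zeb2 cKO hearts. Here replicate 2 of Zeb2 fl/fl lay within the range of the rest, at 1.09 times their mean, and the groups overlapped. The log2 fold change was 0.14 (standard error 0.32, interval -0.62 to 0.89), 0.24 without that library and -0.023 without Zeb2 cKO replicate 3.

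Osm, encoding oncostatin M, had counts of 3, 8 and 3 in Zeb2 fl/fl and of 4, 5 and 7 in Zeb2 cKO hearts. Summed over each group this came to 0.117 CPM (exact Poisson 95% interval 0.0638 to 0.196) in Zeb2 fl/fl and 0.109 CPM (0.0621 to 0.177) in Zeb2 cKO hearts. Il11, a cytokine known from cardiac fibroblasts, had counts of 3, 2 and 1 in Zeb2 fl/fl and of 0, 3 and 0 in Zeb2 cKO hearts. A count of 0 allows 3 counts, between 0.0558 and 0.0796 CPM in these libraries, so Il11 was at or under this limit in every library and no fold is given. The intervals cover counting error only, and a repeat makes up part of the Il11 transcript (8.93% of it is shared with other genes).

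Among the receptors, Il6st, the signal-transducing chain of the whole family (ENSMUSG00000021756, chromosome 13, 112464070 to 112510086, plus strand), measured 130, 214 and 146 CPM in Zeb2 fl/fl and 163, 136 and 159 CPM in Zeb2 cKO hearts. The Zeb2 cKO values lay within the Zeb2 fl/fl range. Its log2 fold change was -0.095 (standard error 0.22, interval -0.61 to 0.42), and 0.15 (interval -0.13 to 0.43) without Zeb2 fl/fl replicate 2. Over the 5 libraries other than that one, Il6st varied from 130 to 163 CPM.

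Il6ra, the chain that binds IL-6 (ENSMUSG00000027947, chromosome 3, 89864059 to 89913196, minus strand), measured 2.47, 5.54 and 2.55 CPM in Zeb2 fl/fl and 2.30, 2.42 and 1.67 CPM in Zeb2 cKO hearts. It was the 1 of the 8 tested genes in which all Zeb2 cKO libraries lay below all Zeb2 fl/fl libraries, as 2.97% of all tested genes did, and 0 of the 8 lay above, where 3.39% of all tested genes did. The gap between the groups was narrow, since the highest Zeb2 cKO library and the lowest Zeb2 fl/fl library differed by less than the spread within either group. The log2 fold change was -0.73 (standard error 0.35, interval -1.57 to 0.11), the adjusted p was 0.957 from edgeR with Benjamini-Hochberg adjustment, and an exact permutation test gave the smallest p that 3 mice against 3 allow, 0.1 (two-sided). Without replicate 2, which was 2.43 times the mean of the others, the log2 fold change was -0.24 (interval -0.73 to 0.25). Without Zeb2 fl/fl replicate 1 it was -0.93, with an unadjusted edgeR p of 0.0403. In that last fit 1134 of all 15075 tested genes were under an unadjusted edgeR p of 0.05, beside 280 of 14746 with all libraries. The longest transcript of Il6ra shares 2.80% of its bases with Gm42809, an antisense gene. The sources used here do not give the strand setting of the counting.

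Osmr, the receptor chain for oncostatin M (ENSMUSG00000022146, chromosome 15, 6813577 to 6874969, minus strand), measured 21.6, 43.0 and 25.4 CPM in Zeb2 fl/fl and 18.5, 21.5 and 26.1 CPM in Zeb2 cKO hearts. The groups overlapped, and replicate 2 of Zeb2 fl/fl was 1.90 times the mean of the other libraries. Its log2 fold change, -0.45 (standard error 0.27, interval -1.10 to 0.21), was -0.091 (interval -0.47 to 0.28) without that library. It was -0.63 without replicate 1 of Zeb2 fl/fl (unadjusted edgeR p 0.0497), a fit with 1134 of all 15075 tested genes under 0.05. Lifr, the receptor chain for LIF, lies on the same chromosome (ENSMUSG00000054263, 7090614 to 7197489, plus strand). Lifr did not have its highest value in Zeb2 fl/fl replicate 2. It measured 47.8, 47.1 and 49.2 CPM in Zeb2 fl/fl and 55.3, 58.4 and 47.3 CPM in Zeb2 cKO hearts, with Zeb2 fl/fl replicate 2 the lowest of the 6 by a small margin. Its log2 fold change was 0.16 (standard error 0.12, interval -0.13 to 0.45) with all libraries and 0.15 without replicate 2.

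OSM receptor and LIF receptor chains both pair with gp130, and the balance of Osmr and Lifr was compared as a ratio within each library, which leaves out library size. The ratio of Osmr to Lifr CPM was 0.452, 0.913 and 0.516 in Zeb2 fl/fl and 0.334, 0.368 and 0.553 in Zeb2 cKO hearts. The group means of the log2 ratio differed by -0.55, Zeb2 cKO minus Zeb2 fl/fl, which an exact permutation test did not separate (two-sided p = 0.3). Without replicate 2 the difference was -0.24 (exact two-sided p = 0.6, smallest possible 0.2). Il6st exceeded Il6ra by 52.8, 38.6 and 57.1 times in Zeb2 fl/fl and by 71.0, 56.2 and 95.2 times in Zeb2 cKO hearts in CPM not corrected for length, a difference of 0.57 in the log2 ratio (exact two-sided p = 0.2). Without replicate 2 it was 0.40 (exact two-sided p = 0.4), and on leaving out each library it ran from 0.37 (without Zeb2 cKO replicate 3) to 0.75 (without Zeb2 cKO replicate 2). The third ratio, of Socs3 to Stat3, is given with those genes. After Benjamini-Hochberg adjustment over the 3 ratios, the exact permutation p-values were 0.45, 0.45 and 1.

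Stat3, the transcription factor that carries the signal to the nucleus (ENSMUSG00000004040, chromosome 11, 100885098 to 100939540, minus strand), measured 88.1, 66.8 and 86.4 CPM in Zeb2 fl/fl and 75.3, 79.6 and 82.7 CPM in Zeb2 cKO hearts. The Zeb2 cKO libraries lay within the range of the others, whose lowest value was replicate 2. Its log2 fold change was -0.023 (standard error 0.15, interval -0.37 to 0.33), and -0.14 (interval -0.36 to 0.083) without that library. It was 0.049 and 0.032 without Zeb2 fl/fl replicates 1 and 3 and 0.012 without Zeb2 cKO replicate 1. Stat5a overlaps Stat3 on the opposite strand.

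Socs3, the feedback inhibitor and the gene with the STAT palindrome shown above (ENSMUSG00000053113, chromosome 11, 117966079 to 117970047, minus strand), measured 2.34, 4.69 and 2.73 CPM in Zeb2 fl/fl and 2.70, 3.02 and 2.68 CPM in Zeb2 cKO hearts. Replicate 2 was 1.74 times the mean of the other libraries, which lay between 2.34 and 3.02 CPM whatever their genotype. The log2 fold change was -0.22 (standard error 0.28, interval -0.88 to 0.44), and 0.14 (interval -0.25 to 0.53) without replicate 2. The ratio of Socs3 to Stat3 CPM was 0.0265, 0.0703 and 0.0316 in Zeb2 fl/fl and 0.0358, 0.0379 and 0.0324 in Zeb2 cKO hearts. The difference in the log2 ratio was -0.14 (exact two-sided p = 1), and without replicate 2 it turned to 0.29, with all 3 Zeb2 cKO libraries above both Zeb2 fl/fl libraries (exact two-sided p = 0.2, the smallest possible).

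**Figure D2:**
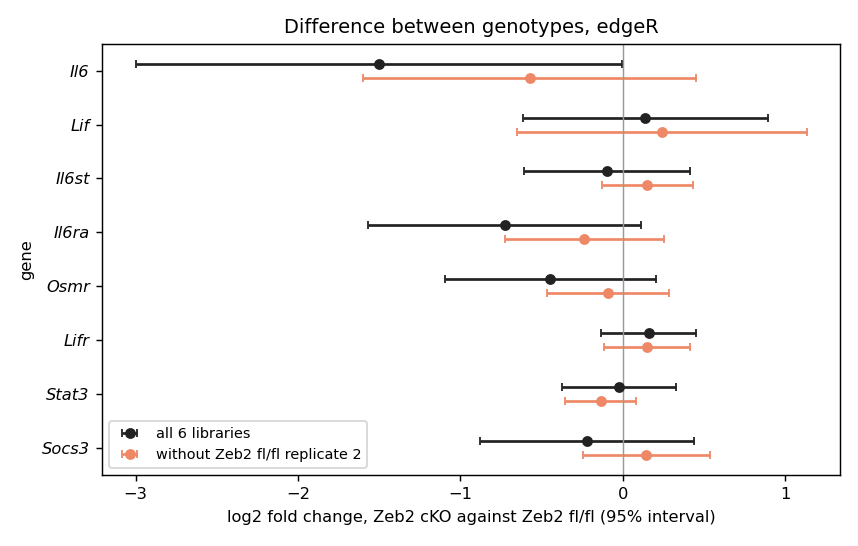
Log2 fold change of Zeb2 cKO against Zeb2 fl/fl hearts (points) with its 95% interval (bars) from edgeR for the 8 tested genes, with all 6 libraries (black) and without Zeb2 fl/fl replicate 2 (orange). The interval of Il6 ends at -0.0055 with all libraries and at 0.45 without replicate 2, and the other intervals all cross 0 in both fits.

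Counted over the 8 tested genes, 4 (Il6, Il6ra, Osmr and Socs3) had a log2 fold change under -0.2, as 22.6% of all tested genes did, 0 had one over 0.2, as 15.9% did, and 4 lay between. Their median was -0.16, beside -0.0069 over all tested genes. Without Zeb2 fl/fl replicate 2, 2 genes (Il6 and Il6ra) were under -0.2, where 11.7% of all tested genes were, 1 (Lif) was over 0.2, where 14.2% were, and the median was 0.027. At an unadjusted edgeR p under 0.05, 0 of the 8 genes were among the 1.04% of all tested genes that were higher in Zeb2 cKO hearts. DESeq2 called 2 genes of the whole table after adjustment, and neither belongs to this group.

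The 8 tested genes differed in how they stood in Zeb2 fl/fl replicate 2. Il6, Il6ra, Osmr, Socs3 and Il6st were highest there (5 of 8, 62.5%, beside 35.2% of all tested genes). They lay from 1.46 times the mean of the other libraries for Il6st to 4.59 times for Il6. Of the untested genes, Osm was also highest there, at 1.89 times, on 8 counts. Lifr (0.912 times, by a small margin) and Stat3 (0.811 times) were lowest in that library, as were 5109 of all 14746 tested genes. Lif lay within the others. Across the other 5 libraries the highest value was no more than 1.52 times the lowest for each receptor, for Stat3 and for Socs3, and 2.42 times for Il6.

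**Figure D3:**
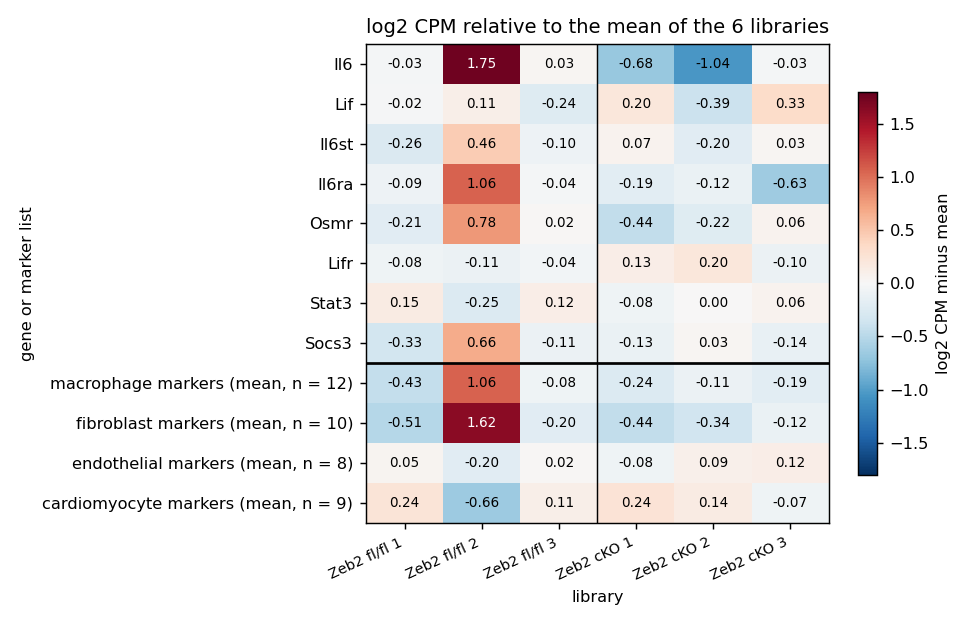
Log2 CPM of the 8 tested genes in each library relative to the mean of the 6 libraries, above the mean of the same quantity over lists of macrophage, fibroblast, endothelial and cardiomyocyte markers. The column of Zeb2 fl/fl replicate 2 holds the highest value of Il6 (1.75), Il6ra (1.06), Osmr (0.78), Socs3 (0.66) and Il6st (0.46), beside 1.62 for fibroblast, 1.06 for macrophage and -0.66 for cardiomyocyte markers.

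Markers of cell types in the tissue stood apart in the same library. All 10 fibroblast markers and 10 of 12 macrophage markers were highest in Zeb2 fl/fl replicate 2, and 8 of 9 cardiomyocyte markers were lowest there. Fibroblast markers summed to 1733 to 9794 CPM in Zeb2 fl/fl and 1754 to 2376 CPM in Zeb2 cKO hearts, and macrophage markers to 243 to 906 and 287 to 311 CPM. Their median log2 fold changes of -0.93 and -0.78 were 0.048 and 0.018 without that library. Cardiomyocyte markers summed to 12976 to 25108 CPM in Zeb2 fl/fl and 20077 to 24534 CPM in Zeb2 cKO hearts. The 8 endothelial markers (442 to 588 and 520 to 607 CPM) and the 8 of smooth muscle and pericytes (644 to 985 and 905 to 972 CPM) had their lowest sums in replicate 2. The 6 neutrophil markers (1.81 to 4.99 and 1.50 to 2.62 CPM) and 8 lymphocyte markers (1.20 to 3.19 and 0.807 to 1.71 CPM) were scarce, and the 6 adipocyte markers summed to 125 to 177 CPM in Zeb2 fl/fl and 162 to 216 CPM in Zeb2 cKO hearts. No marker of any list was at 0 in all libraries. The part of cell composition in the values of the cytokine pathway was not tested.

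For each tested gene, the 3 genes of the table with the nearest profile were sought by the root mean square difference of centred log2 CPM over the 6 libraries. They were Adam8 (0.11), Csf2rb and Prrx2 (0.21) for Il6, and Sdf2l1 (0.085), Parvg (0.089) and Ptprd (0.13) for Il6ra. For Osmr they were Plat (0.041), Dynll1 (0.046) and Ldlrad4 (0.050), and for Socs3 Txndc16 (0.046), Pros1 (0.049) and the pseudogene Rpl9-ps7 (0.052). Nearest to Il6st were Rpe (0.033), Rps10 and Arl15, to Lifr Cnot10 (0.025), Eri3 and Cog5, to Stat3 Tex261 (0.023), Usf3 and Mrps34, and to Lif Gm11613 (0.075), Snapc1 and Trmo. Within the group the closest pairs were Il6st with Socs3 (0.17), Stat3 with Lifr (0.19) and Osmr with Socs3 (0.20). Each pair was farther apart than either gene was from its nearest genes. The nearest genes were sought in the whole table, so this cannot show whether genes of the group share a profile. These distances describe 6 libraries and are small for genes that vary little.

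The rest of the pathway was listed by role. Of 8 other ligand genes, 3 were tested and 0 passed an adjusted p of 0.05 in edgeR, with a median log2 fold change of -0.24 (0.10 without Zeb2 fl/fl replicate 2). Ctf1, encoding cardiotrophin-1, was lowest in replicate 2 (0.570 CPM, beside 0.937 to 1.36 CPM elsewhere) with a log2 fold change of 0.54 (0.32 without that library), and Clcf1 was at -0.24 (0.10 without it). Part of the Ctf1 transcript (6.43%) is shared with Ctf2, which had 0 counts, as had Il31.

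The 3 other receptor chains tested, of 4, had a median log2 fold change of -0.34 (0.048 without replicate 2), and all 3 were highest in replicate 2. Il11ra1 was at -0.45 with all libraries and -0.20 without that one, whereas Cntfr (-0.34 and 0.75) and Il27ra (-0.24 and 0.048) turned in sign. The 10 JAK kinases and downstream transducers were all tested. Their median was -0.043 (-0.071 without replicate 2), with Stat5a, at 0.29 (0.095 without replicate 2), the 1 over 0.2, and 3 of the 10 were highest in replicate 2. Jak1, the main kinase on gp130, was at a median of 10.6 CPM per kilobase, with a log2 fold change of -0.17 (-0.11 without replicate 2). Of 8 other inhibitors, 7 were tested, with a median of -0.11 (-0.0068 without replicate 2). The phosphatases Ptpn6, found mainly in blood cells, at -0.73, and Ptpn1, at -0.32, were under -0.2 with all libraries and at 0.020 and -0.13 without replicate 2. In that library Ptpn6 measured 9.23 CPM, beside 2.55 to 3.57 CPM in the others. Pias1 was at -0.11 and, without replicate 2, at -0.00071. In each of these lists 0 genes passed the adjusted or the unadjusted p of 0.05 in edgeR.

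Of 26 genes known to respond to STAT3, 25 were tested and 0 passed the adjusted p of 0.05. Log2 fold changes were under -0.2 in 14 (22.6% of all tested genes) and over 0.2 in 2 (15.9% of all tested genes), with a median of -0.30. Without replicate 2 they were under -0.2 in 7 (11.7% of all tested genes) and over 0.2 in 2 (14.2% of all tested genes), with a median of -0.10. Junb, a subunit of the AP-1 factor, was the 1 with an unadjusted p under 0.05 (0.0213 in edgeR), a call that 0.861% of all tested genes shared on the lower side. Without replicate 2 there were 3 such genes, Junb (0.00133), Mt1 (0.00551) and Mt2 (0.0416), all lower in Zeb2 cKO hearts in edgeR. In that fit 393 of all 14966 tested genes had an unadjusted p under 0.05, counted in both directions. Junb measured 11.6, 7.31 and 9.22 CPM in Zeb2 fl/fl and 5.90, 7.05 and 6.07 CPM in Zeb2 cKO hearts, with no overlap of the groups, as in 2.97% of all tested genes on the lower side. Replicate 2 was here the lowest of the Zeb2 fl/fl libraries, and the log2 fold change, -0.57 (standard error 0.19), was -0.72 without it. Serpina3n, a serine protease inhibitor of the acute phase, measured 3.56, 51.8 and 14.0 CPM in Zeb2 fl/fl and 6.30, 6.43 and 11.8 CPM in Zeb2 cKO hearts, with a log2 fold change of -1.50 that was -0.092 without replicate 2, and Timp1, an inhibitor of matrix proteases, went from -1.31 to -0.10 in the same way. Mt2, a metallothionein, was at -0.73 with all libraries and -0.90 without replicate 2, Il1r1 at -0.79 and -0.084, and Cebpd at -0.63 and -0.13. Serpina3n and Mt1 were outside the naming rule and were chosen after its values were seen.

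Of 7 genes known to respond to oncostatin M in cardiomyocytes, 5 were tested, 0 passed the adjusted p of 0.05, and 4 were under -0.2 (22.6% of all tested genes), with a median of -0.60 (-0.035 without replicate 2). Nppa, encoding atrial natriuretic peptide, was the 1 with an unadjusted p under 0.05 (0.00584 in edgeR), where 0.861% of all tested genes were so called on the lower side. It measured 337, 717 and 309 CPM in Zeb2 fl/fl and 189, 131 and 188 CPM in Zeb2 cKO hearts, all 3 of the latter below all 3 of the former (2.97% of all tested genes), and its log2 fold change, -1.42 (standard error 0.36), was -0.93 without replicate 2. Its adjusted p was 0.957 from edgeR with Benjamini-Hochberg adjustment. Runx1 was at -1.28 and -0.035 with and without replicate 2, Nppb, the B-type peptide, at -0.60 and -0.24, Dab2 at -0.45 and 0.042, and Acta1, skeletal actin, at 0.32 and 0.068. Reg3b had 0 counts in all libraries.

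**Figure D4:**
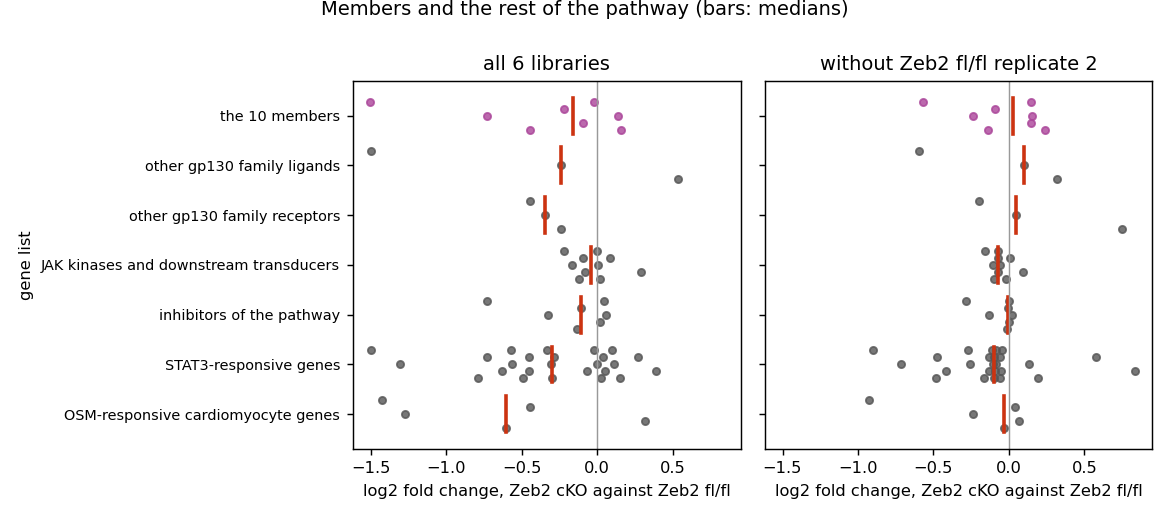
Log2 fold change of Zeb2 cKO against Zeb2 fl/fl hearts for each tested gene (points) of the 10 genes studied and of the 6 other lists of the pathway, with the list median as a red bar, with all 6 libraries (left) and without Zeb2 fl/fl replicate 2 (right). The medians of the STAT3-responsive and OSM-responsive genes lie at -0.30 and -0.60 on the left and at -0.10 and -0.035 on the right.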

How the data were processed

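RNA-seq of infarcted heart tissue was analysed for 3 mice of each genotype, with groups and replicate numbers from the sample labels. The authors sequenced stranded libraries without ribosomal RNA, aligned the reads with the STAR workflow and deposited raw counts per gene of Gencode M4 (GRCm38). The STAR version, the strand setting and the handling of reads with several matches are not given in the sources used here. All columns belonged to a sample (0 left over). Symbols and exon lengths came from Gencode M21 by gene identifier.

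Counts were normalized with TMM, filtered with filterByExpr and tested with edgeR 4.0.16 in R 4.3.3 (glmQLFit and glmQLFTest, genotype as the factor), with Benjamini-Hochberg adjustment over 14746 genes and a prior count of 0.125. Single values were compared with exact permutation tests (SciPy 1.17.1). DESeq2 1.42.0 was an alternative, as were RLE size factors, no filter on low counts, no mitochondrially encoded genes, a replicate block, a prior count of 2 and leaving out each library. Near-identical stretches were sought with BLAST 2.17.0 over at least 75 bases at 95% identity. The steps were tested on simulated data. Each library is labelled as a separate sample, and p-values measure the spread between them.

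The genes studied and all lists were chosen with earlier results of these data known. Named were the 10 genes, Zeb2, the 3 nearest profiles of each, and of each other list the genes with an unadjusted p under 0.05, or else the 3 smallest (5 for STAT3- and OSM-responsive genes). Some genes of the lists enter their counts and medians and are not reported here by name.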

Additional observations from a re-analysis of the deposited data

How the results depend on the processing

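No gene of the group passed the adjusted p of 0.05 in any alternative, edgeR or DESeq2. At an unadjusted p under 0.05, the 1 gene with all libraries became 0 to 3 when a library was left out. The 3 were Il6, Il6ra and Osmr, without Zeb2 fl/fl replicate 1. In that fit 1134 of all 15075 tested genes were under 0.05 in edgeR, beside 280 of 14746 with all libraries. The group had 0 such genes without Zeb2 fl/fl replicate 2 (393 of all 14966 tested genes). It also had 0 without Zeb2 cKO replicate 1 (122 of 15009) or Zeb2 cKO replicate 2 (181 of 15021). Genes of the group with a log2 fold change under -0.2 went from 4 to between 2 and 5, and those over 0.2 from 0 to at most 1. On leaving out each library the log2 fold change ranged from -0.023 to 0.34 for Lif, -0.23 to 0.15 for Il6st, -0.14 to 0.049 for Stat3, -0.41 to 0.14 for Socs3, -1.90 to -0.57 for Il6, -0.93 to -0.24 for Il6ra, -0.63 to -0.091 for Osmr and 0.097 to 0.24 for Lifr. The sign turned for Lif without Zeb2 cKO replicate 3 (-0.023), for Il6st (0.15) and Socs3 (0.14) without Zeb2 fl/fl replicate 2, and for Stat3 without Zeb2 fl/fl replicate 1 (0.049) or 3 (0.032) or Zeb2 cKO replicate 1 (0.012). The log2 ratio of Socs3 to Stat3 ranged from -0.42 to 0.29. The cause was not tested.

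Replicate numbers do not pair the mice. The deviations of same-numbered libraries correlated at 0.088, -0.14 and -0.087 over genes, and 0 of the 6 libraries correlated best with their own number. With the replicate number as a block, 0 genes of the group had an unadjusted p under 0.05, where Il6 was at -1.29, Il6ra at -0.64, Osmr at -0.40 and Socs3 at -0.16, and 3 were under -0.2. Depth limits Osm, Il11 and, at 7 to 61 counts, Il6 and Lif.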
